A study of Gasterosteus aculeatus with 53 samples.

Results

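The 100 genes described here were those whose brain levels were higher in both limnetic stickleback populations than in the benthic one, with the limnetic populations close to each other. They were selected on these levels. Counts were divided by the total of each library and put on the usual CPM scale, and genes with a mean CPM of at least 1 were kept. For each gene the mean of log2(CPM + 0.5) was taken per population, and genes were kept where the limnetic means lay within 0.3 of each other. The score was the smaller of the differences of the limnetic means from the benthic mean, and the 100 genes with the highest score were taken. Of 22456 gene identifiers in the table, 17565 had a mean CPM of at least 1, 15913 of these had limnetic means within 0.3, and 7346 of these had a score above 0. Because the limnetic and benthic values chose the members, their differences are given below as descriptions, with no test.

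The libraries were made from whole brains of female threespine sticklebacks (Gasterosteus aculeatus), 1 library per fish. Wild-caught fish from Paxton and Priest lakes on Texada Island, British Columbia, were used in laboratory trials, in which a female met a courting male of her own species (conspecific), a courting male of the other species of her lake (heterospecific) or, as the social control, another female of her own population. Her brain was taken when she spawned or after 20 min. Each of the 9 groups was 1 population under 1 of these 3 treatments. Paxton benthic females gave 5 conspecific, 5 heterospecific and 6 social control libraries, Paxton limnetic females gave 6 of each, and Priest limnetic females gave 5, 6 and 6. Benthic fish of Priest Lake were not analysed here, so the benthic side of every comparison came from Paxton Lake alone.

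Benthic and limnetic sticklebacks are species pairs that live side by side in a few small lakes. Benthic fish are deep-bodied and feed on invertebrates near the lake bottom, whereas limnetic fish are slender and feed on plankton in open water. Females mostly choose males of their own species, and pairs in different lakes are a textbook case of parallel divergence. Expression that is alike in limnetic fish of different lakes and unlike that of benthic fish of one of these lakes is the pattern followed here.

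The members are named by their Ensembl identifiers, which the sources used here did not pair with gene names. Roles, positions and sequences of the members are therefore not given, and neither brain markers nor markers of other cell types could be checked. In whole brain, fewer cells of a type and less RNA per cell cannot be told apart.

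Libraries held 29537339 to 45778325 counts in benthic females, 33331960 to 52788436 in Paxton limnetic females and 23849743 to 45154372 in those of Priest Lake. The rule left out 2 of 53 libraries, trial 83 (labelled Paxton benthic conspecific) and trial 9 (labelled Priest limnetic conspecific). They are taken here to be the Paxton benthic and Priest limnetic samples that the study removed because they appeared to be swapped. Over the members, trial 14 (Paxton benthic heterospecific) also stood apart from its population, and counts that it moved are given with and without it. Trial 72 (Priest limnetic social control) was the lowest limnetic library, and without it 5 members separated and 0 were called between treatments within a population, the same counts as with it. Trial number, the only sequence that the labels give, was not balanced. Whether it follows the dates of the trials is not stated. The median trial number was 79.5 in benthic females, 38.5 in Paxton limnetic females and 44 in those of Priest Lake, so population and trial number were partly confounded.

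The members were mostly genes of low level. Their mean CPM ranged from 1.07 to 231 with a median of 6.48, whereas the median of all 17565 genes was 22. Of the 100 members, 83 had a mean CPM of at least 2, 36 of at least 10, 13 of at least 50 and 5 of at least 100. Together they took a small share of all counts, 0.118% to 0.173% (median 0.145%) in the 16 Paxton benthic libraries. This share was 0.198% to 0.252% (median 0.231%) in the 18 Paxton limnetic and 0.200% to 0.257% (median 0.234%) in the 17 Priest limnetic libraries. The lowest limnetic library was thus above the highest benthic library in the summed share. The same libraries chose the members, so nothing is read from this.

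Scores fell steeply over the first few members and then flattened. The highest score was 2.75, the median 0.67 and the lowest 0.51, and only 2 members scored at least 2 and 15 at least 1. The median difference over the members on the log2(CPM + 0.5) scale was 0.72 between Paxton limnetic and Paxton benthic females and 0.72 for Priest limnetic females against the same benthic libraries. Over all 17565 genes these medians were 0.02 and 0.02. Members were spread about equally within each population, with a median SD of 0.33 in benthic females, 0.32 in Paxton limnetic females and 0.36 in those of Priest Lake on the same scale. In 57 of the 100 members the Priest limnetic mean was above the Paxton limnetic mean.

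**Figure D1:**
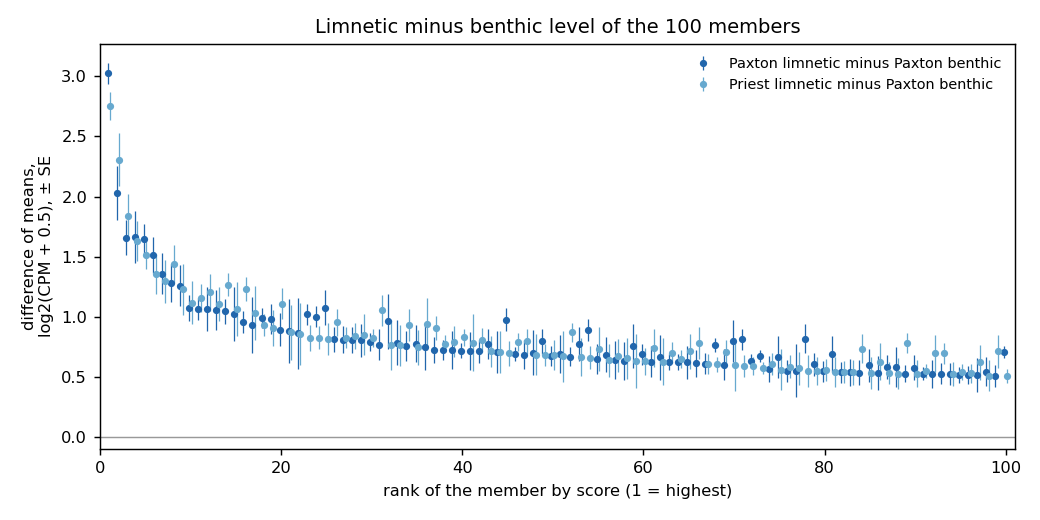
Difference of means on the log2(CPM + 0.5) scale (vertical axis) for each of the 100 members, ordered by score (horizontal axis), with points for Paxton limnetic (18 libraries) and Priest limnetic (17) minus Paxton benthic (16) females and bars of 1 SE. The Paxton difference is 3.03 in the first member, 0.51 in the member ranked 99 and 0.71 in the last. The Priest difference is 2.75 in the first member and 0.51 in the last. The limnetic populations stay within 0.3 of each other by construction.

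The cut at 100 members passed through a dense run of genes. The last members inside were ENSGACG00000010674 with a score of 0.509, ENSGACG00000019061 with 0.507 and ENSGACG00000016179 with 0.506. The first genes outside were ENSGACG00000002145 with a score of 0.499, ENSGACG00000016754 with 0.499 and ENSGACG00000011006 with 0.498. The step across the cut was small beside the errors of the differences, which were 0.05 and 0.06 (SE) for ENSGACG00000016179, so membership at the lower end of the list was not firm.

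ENSGACG00000020023 had by far the highest score. In Paxton benthic females its CPM was 0.0275 at the lowest, 0.364 at the median and 0.648 at the highest. It was 4.87, 6.59 and 8.5 in Paxton limnetic females and 2.50, 5.68 and 7.42 in those of Priest Lake. The 16 benthic libraries held only 1 to 28 reads each, and the 35 limnetic libraries were all above them. Mean CPM was 17.5-fold higher in Paxton limnetic and 14.5-fold higher in Priest limnetic than in Paxton benthic females, or 3.03 ± 0.09 and 2.75 ± 0.12 (SE) on the log2(CPM + 0.5) scale, which understates the change of such low genes.

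ENSGACG00000005973 was 2nd and did not separate the populations. Its CPM was 3.93 at the lowest, 4.95 at the median and 25.1 at the highest in Paxton benthic females. The same values were 16.2, 28.7 and 41.8 in Paxton limnetic females and 16.2, 32.8 and 47.6 in those of Priest Lake. The benthic libraries formed a step, with 14 at or below 11.2 CPM and 2, trials 14 and 90 of the heterospecific treatment, at 23.6 and 25.1 CPM, inside the limnetic range. The difference of means was 2.03 ± 0.23 (SE) for Paxton limnetic and 2.31 ± 0.22 for Priest limnetic females on the log2(CPM + 0.5) scale.

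ENSGACG00000019056 was near 0 in benthic females apart from 1 fish. Its CPM was 0 at the lowest, 0.0478 at the median and 1.37 at the highest in Paxton benthic females, against 0.72, 1.37 and 2.33 in Paxton limnetic females and 0.534, 1.69 and 3.16 in those of Priest Lake. Trial 14 gave the value of 1.37, from 53 reads. The other 15 benthic libraries held 0 to 4 reads, at most 0.0926 CPM, and all lay below all 35 limnetic libraries. Differences of means were 1.66 ± 0.15 and 1.84 ± 0.18 (SE) for Paxton and Priest limnetic females on the log2(CPM + 0.5) scale.

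ENSGACG00000012348 had its step in another fish. Its CPM was 2.82, 3.94 and 16.7 (lowest, median, highest) in Paxton benthic females, 3.98, 15.7 and 31.5 in Paxton limnetic females and 8.57, 14.2 and 25.8 in those of Priest Lake. The benthic value of 16.7 was from trial 90, and the other 15 benthic libraries were at or below 6.22. At the other end the Paxton limnetic value of 3.98, from trial 55, was inside the benthic range, so that only 8 of the 16 benthic libraries lay below all limnetic ones. Differences of means were 1.66 ± 0.21 and 1.63 ± 0.17 (SE) on the log2(CPM + 0.5) scale.

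ENSGACG00000018436 and ENSGACG00000016317 were next by score. ENSGACG00000018436 had a CPM of 0.406, 1.06 and 1.92 (lowest, median, highest) in Paxton benthic females, 2.32, 4.27 and 6.80 in Paxton limnetic females and 2.97, 3.55 and 5.75 in those of Priest Lake, with no overlap. ENSGACG00000016317 had 0.271, 1.15 and 2.50 in Paxton benthic females, 2.49, 4.03 and 5.17 in Paxton limnetic females and 1.08, 3.70 and 5.00 in those of Priest Lake. For this gene 33 of 35 limnetic libraries were above all benthic ones, and the low Priest limnetic value of 1.08 was from trial 71, with the next at 2.55. The differences of means were 1.65 ± 0.12 and 1.51 ± 0.11 (SE) for ENSGACG00000018436, and 1.51 ± 0.15 and 1.35 ± 0.17 for ENSGACG00000016317, for Paxton and Priest limnetic females on the log2(CPM + 0.5) scale.

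**Figure D2:**
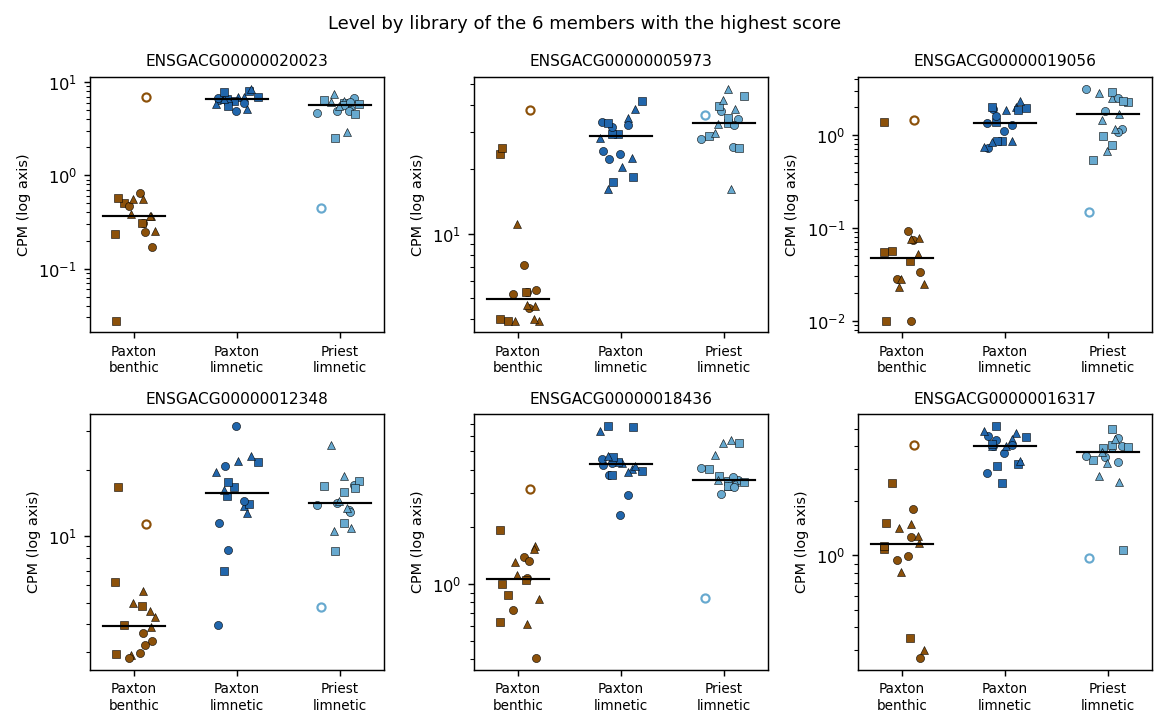
CPM (vertical log axis) of the 6 members with the highest score in each library, by population, with circles for the conspecific, squares for the heterospecific and triangles for the social control treatment, lines at the population median, and open circles for the left-out trials 83 (under Paxton benthic) and 9 (under Priest limnetic). Libraries with 0 reads are drawn at 0.01 CPM. All 35 limnetic libraries lie above the 16 benthic ones for ENSGACG00000020023 and ENSGACG00000018436, while 2 benthic squares reach the limnetic range for ENSGACG00000005973 and 1 for ENSGACG00000019056, and the groups overlap more widely for ENSGACG00000012348.

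The next 6 members by score all stayed under 12 CPM in each library. ENSGACG00000007921 had a median CPM of 0.215 (0.052 to 0.973) in Paxton benthic females, 1.45 (0.409 to 3.63) in Paxton limnetic females and 1.28 (0.62 to 3.68) in those of Priest Lake. ENSGACG00000001346 had 1.04 (0.257 to 2.77), 3.50 (1.35 to 5.38) and 3.50 (1.94 to 8.63) in the same order. In both genes the highest benthic value was inside the limnetic range, and 25 and 26 of the 35 limnetic libraries were above it.

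ENSGACG00000010914 had a median CPM of 0.97 (0.297 to 2.59) in Paxton benthic females, 2.88 (1.22 to 5.21) in Paxton limnetic females and 2.94 (0.49 to 7.36) in those of Priest Lake. ENSGACG00000008030 had 1.41 (0.856 to 2.15), 3.43 (1.95 to 6.57) and 3.86 (0.586 to 7.49). In ENSGACG00000008030, 32 of 35 limnetic libraries were above all benthic ones, yet its lowest limnetic library, trial 71, was below all 16 benthic libraries. ENSGACG00000020410 had 3.19 (1.86 to 4.49), 7.0 (5.20 to 8.56) and 7.25 (4.74 to 11.9), and ENSGACG00000000886 had 0.721 (0.158 to 2.15), 2.38 (0.485 to 4.57) and 2.61 (1.48 to 3.65). Only ENSGACG00000020410 among these 6 showed no overlap between limnetic and benthic libraries.

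Complete separation of the 35 limnetic from the 16 benthic libraries was found in 5 of the 100 members. They were ENSGACG00000020023, ENSGACG00000018436, ENSGACG00000020410, ENSGACG00000018015 and ENSGACG00000009154. Over all 17565 genes, 10 genes or 0.0569% separated in this direction, and since the rule used the same contrast nothing is read from the comparison. Every Paxton limnetic library was above every benthic one in 9 members and in 0.154% of all genes, and every Priest limnetic library in 10 members and in 0.148% of all genes, again with the contrast that chose the members. In the median member, 25 of 35 limnetic libraries were above all benthic ones and 6.5 of 16 benthic libraries were below all limnetic ones.

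The separated members with the lower scores were the tightest. ENSGACG00000018015 had a CPM of 4.10, 6.37 and 7.71 (lowest, median, highest) in Paxton benthic females, 8.51, 10.5 and 12.2 in Paxton limnetic females and 9.05, 11.3 and 13.5 in those of Priest Lake. ENSGACG00000009154 had 12.1, 16.4 and 18.7, then 22.2, 25.7 and 31.0, then 21.1, 27.0 and 36.5. Their differences of 0.72 ± 0.06 and 0.83 ± 0.07 (SE) for ENSGACG00000018015, and 0.69 ± 0.06 and 0.79 ± 0.07 for ENSGACG00000009154, were near the median of the members on the log2(CPM + 0.5) scale, and their limnetic and benthic libraries did not overlap.

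A single benthic library kept 5 further members from separating. Without trial 14, 10 members and 0.0911% of all genes separated, adding ENSGACG00000019056, ENSGACG00000001490, ENSGACG00000009844, ENSGACG00000012087 and ENSGACG00000019274. In ENSGACG00000001490, for example, trial 14 was at 7.47 CPM, the next benthic library at 5.67 and the lowest limnetic library at 6.71. In ENSGACG00000019274 trial 14 was at 63.4 CPM, the next benthic library at 48.9 and the lowest limnetic library at 49.7, so the gap without trial 14 was small. With all 53 libraries under their labels no member separated.

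The most abundant members had modest differences. ENSGACG00000004041 had a CPM of 119.8, 152.1 and 335.2 (lowest, median, highest) in Paxton benthic females, 161.2, 241.5 and 351.0 in Paxton limnetic females and 167.3, 240.1 and 397.6 in those of Priest Lake. Its mean CPM was 1.4-fold and 1.51-fold higher in Paxton and Priest limnetic than in benthic females, and only 5 of 35 limnetic libraries were above all benthic ones. ENSGACG00000010674, with a mean CPM of 195, was 1.44-fold and 1.42-fold higher, with 14 of 35 limnetic libraries above all benthic ones. ENSGACG00000008259 and ENSGACG00000014031, with mean CPM of 106 and 105, were 1.45-fold and 1.39-fold higher in Paxton limnetic females and 1.45-fold and 1.49-fold higher in those of Priest Lake.

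ENSGACG00000007634 combined a high level with a difference above the median of the members. Its CPM was 37.6, 64.7 and 91.1 (lowest, median, highest) in Paxton benthic females, 59.7, 121.6 and 153.0 in Paxton limnetic females and 92.1, 140.5 and 168.2 in those of Priest Lake. Every Priest limnetic library and all but 1 Paxton limnetic library, trial 55, were above all benthic libraries. Mean CPM was 1.82-fold higher in Paxton limnetic and 2.10-fold higher in Priest limnetic than in benthic females. The sixth by level, ENSGACG00000018505 with a mean CPM of 83.6, was 1.49-fold and 1.59-fold higher, and 16 of its 35 limnetic libraries were above all benthic ones.

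The members that varied most among limnetic libraries had 1 extreme fish, a broad spread or both. ENSGACG00000014432 reached 26.0 CPM in Paxton limnetic conspecific trial 20, while the next Paxton limnetic library was at 5.07 and the Priest limnetic libraries spanned 1.82 to 5.64. ENSGACG00000019188 reached 17.5 CPM in Priest limnetic social control trial 45, with the next Priest limnetic library at 7.67. ENSGACG00000014691 showed both. It reached 8.96 CPM in Priest limnetic trial 72, with the next Priest limnetic library at 3.27. In Paxton limnetic females it spanned 0.128 to 6.01 CPM, with the second highest library at 5.59.

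The remaining members of this kind, ENSGACG00000010915 and ENSGACG00000010023, were spread without a single extreme. ENSGACG00000010915 ranged from 0 to 4.06 CPM in Priest limnetic and from 0.0918 to 3.07 in Paxton limnetic females, and from 0.0229 to 1.25 in benthic females. ENSGACG00000010023 ranged from 0.931 to 10.5 CPM in Paxton limnetic females and from 1.69 to 8.84 in those of Priest Lake, and from 0.612 to 3.73 in benthic females. SDs on the log2(CPM + 0.5) scale over the 35 limnetic libraries were 0.72 for ENSGACG00000014691, 0.69 for ENSGACG00000010915, 0.68 for ENSGACG00000010023, 0.66 for ENSGACG00000019188 and 0.65 for ENSGACG00000014432.

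Gaps of at least 1 on the log2(CPM + 0.5) scale between neighbouring benthic libraries were found in 5 members, picked out after their values were seen. Beside ENSGACG00000005973, ENSGACG00000019056 and ENSGACG00000012348, they were ENSGACG00000009989 and ENSGACG00000005722. ENSGACG00000009989 was at 6.92 CPM in trial 14 and at or below 2.58 in the other 15 benthic libraries. ENSGACG00000005722 stepped the other way, with 2 low benthic libraries, the social control trials 84 and 89 at 1.33 and 1.62 CPM, and the other 14 between 5.57 and 15.3 CPM. Its lowest limnetic library was at 7.16 CPM, and 8 of the 14 were inside the limnetic range.

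To compare libraries over all members at once, each library was placed for each member on a scale on which 0 was the benthic mean and 1 the mean of the limnetic libraries, and the median position over the 100 members was taken. The scale uses the means that chose the members, so the populations lie apart by construction and only the order within them is informative. Paxton benthic libraries lay between -0.164 and 0.41 (median -0.025), Paxton limnetic between 0.779 and 1.1 (median 1.02) and Priest limnetic between 0.732 and 1.17 (median 1.03).

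Trial 14 stood out among the benthic libraries at 0.41, with trial 90 next at 0.0875. It was nearer to the limnetic than to the benthic mean in 42 of the 100 members, whereas the other 15 benthic libraries were so in 6 to 21. Trial 14 also held the highest benthic value in 26 members, and trial 31, also heterospecific, in 16. The lowest limnetic libraries were Priest limnetic trial 72 at 0.732 and Paxton limnetic trial 17 at 0.779. They were nearer to the limnetic mean in 78 and 74 members, and trial 17 held the lowest limnetic value in 14 members and trial 72 in 8.

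The left-out libraries lay opposite to their labels. Trial 83, labelled Paxton benthic, had a median position of 1.11 and was nearer to the limnetic mean in 94 members. Its value was inside the Priest limnetic range in 94 members, inside the Paxton limnetic range in 92 and inside the benthic range in 21. Trial 9, labelled Priest limnetic, had a median position of 0.0682 and was nearer to the limnetic mean in 23 members. It was inside the benthic range in 90 members and inside the Priest limnetic range in 48.

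Single members showed the same placement. ENSGACG00000020023 was at 7.0 CPM in trial 83 and at 0.446 in trial 9, where the highest benthic library was at 0.648 and the lowest limnetic at 2.50. ENSGACG00000018436 was at 3.17 CPM in trial 83 and 0.843 in trial 9, on the limnetic and the benthic side. ENSGACG00000005973 went the other way in trial 9, at 36.0 CPM, above the 25.1 CPM of the highest benthic library. These libraries took no part in choosing the members, but they were left out for their expression, so their values are a description only.

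**Figure D3:**
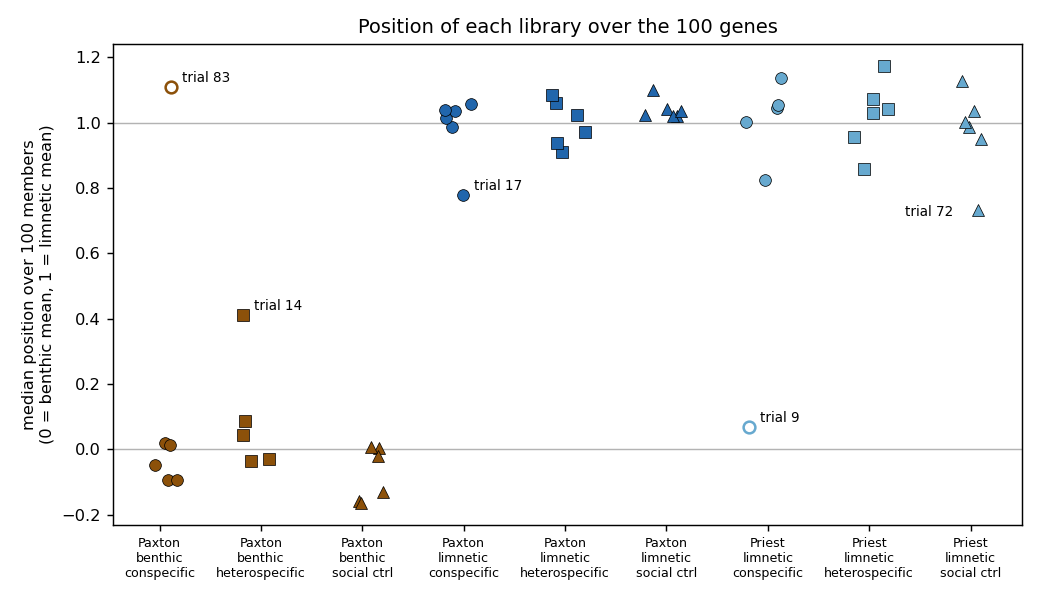
Median position over the 100 members (vertical axis, 0 = mean of the benthic libraries, 1 = mean of the limnetic libraries) of each library, by population and treatment (horizontal axis), with open circles for the left-out trials 83 and 9. Benthic trial 14 lies at 0.41, apart from the other benthic libraries at -0.164 to 0.0875, and the left-out libraries lie at 1.11 and 0.0682, opposite to their labels.

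Within each treatment the members kept their direction. The median difference of the members on the log2(CPM + 0.5) scale between Paxton limnetic and Paxton benthic females was 0.75 among conspecific, 0.66 among heterospecific and 0.80 among social control libraries. Between Priest limnetic and Paxton benthic females it was 0.81, 0.65 and 0.76 in the same order. Over all genes these medians lay between 0.0034 and 0.0273. All 100 members had a higher limnetic mean in each of these comparisons, apart from 2 members in the Paxton heterospecific one. These libraries are those that chose the members, so the counts describe how evenly the selected difference was spread over treatments.

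The members below 0 in the Paxton heterospecific comparison were ENSGACG00000004041, with a difference of -0.0264, and ENSGACG00000014432, with -0.0003. ENSGACG00000020689 at 0.0066, ENSGACG00000018014 at 0.0401 and ENSGACG00000011884 at 0.0522 were just above. In ENSGACG00000004041 the other 5 differences lay between 0.193 and 0.914. For ENSGACG00000014432 they lay between 0.128 and 1.1, the highest in the conspecific Paxton comparison, which includes the 26.0 CPM of trial 20.

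**Figure D4:**
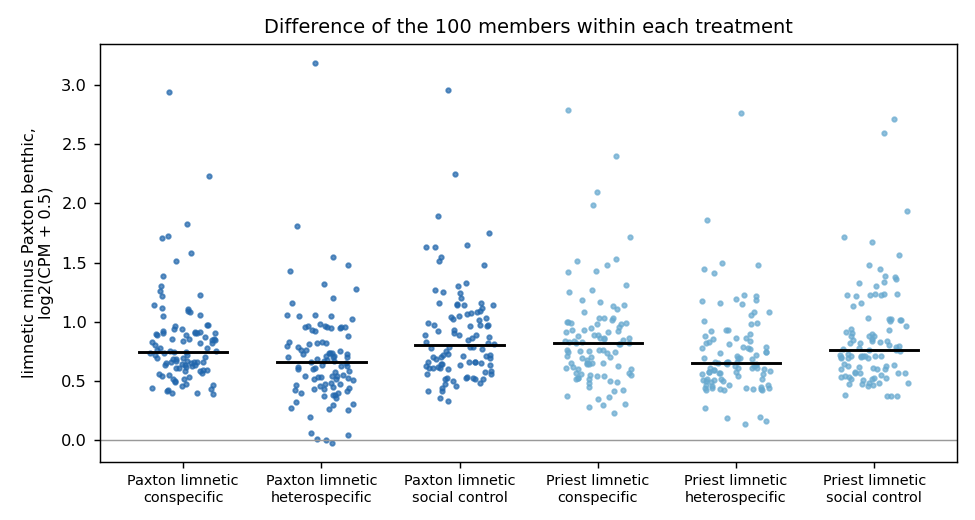
Difference of means on the log2(CPM + 0.5) scale (vertical axis) of each of the 100 members (points) between a limnetic population and Paxton benthic females of the same treatment (horizontal axis), with lines at the medians. Medians lie between 0.65 and 0.81, and only 2 points, in the Paxton heterospecific comparison, fall below 0.

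Since trial number was partly confounded with population, the differences were also computed with it. In a linear model with trial number and treatment as further terms, all 100 members had a difference above 0 for both limnetic populations, as against 57.9% of all genes for Paxton and 54.9% for Priest limnetic females. The members were chosen for this difference in the same libraries, so the count is close to fixed by the choice and is no check on trial number. The median was 0.73 for Paxton limnetic, with a lowest value of 0.38, and 0.74 for Priest limnetic females, with a lowest value of 0.336, on the log2(CPM + 0.5) scale, and over all genes it was 0.03 and 0.02. The model assumes that trial number acts in the same way in each population.

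Whether the members also responded to the trial partner was tested within each population, which the rule did not use. With edgeR's quasi-likelihood test over 20011 genes and p-values adjusted by the Benjamini-Hochberg method, called under 0.1, no member was called in any of the 9 contrasts. In Paxton benthic females the share of all genes called was 0.015% between conspecific and heterospecific, 0.00999% between conspecific and social control and 0.03% between heterospecific and social control libraries. In Paxton limnetic females it was 0%, 0.075% and 0%, and in Priest limnetic females 0.005%, 0.02% and 0%, in the same order. With so few genes called in all, 0 of 100 members is near the background. With DESeq2 at the same threshold, the study reported more genes than this in the contrasts that involve conspecific males. The background given here thus holds for this edgeR fit of the 51 libraries alone. Why the numbers differ was not tested.

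At an unadjusted p-value under 0.05, the members with a low edgeR p-value in these contrasts numbered 9, 4 and 19 in Paxton benthic females, 8, 2 and 2 in Paxton limnetic females and 0, 4 and 6 in those of Priest Lake, in the same order. Over all genes the shares with such a p-value were 7.45%, 5.82% and 3.77%, then 6.60%, 2.85% and 4.45%, then 3.34%, 4.66% and 7.70%. The count of members was within a few of the number that these shares give for 100 genes, apart from the 19 between heterospecific and social control benthic libraries. DESeq2 called 2 members at an adjusted p-value under 0.1, both between heterospecific and social control Paxton benthic females, where it called 0.11% of all genes. The smallest adjusted p-value of a member by edgeR in any of these 9 contrasts was 0.204, also in that one. DESeq2 called no member in the other 8 contrasts, but its shares of all genes there are not given here. Nothing is therefore read from these counts of 0.

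Between heterospecific and social control Paxton benthic females, 18 of the 19 members with an unadjusted p-value under 0.05 by edgeR had a higher heterospecific level. The median log2 fold change of the members was 0.13, and that of all genes -0.0025. Without trial 14 the members with such a p-value were 11, of which 10 had the higher heterospecific level, with 2.85% of all genes, and the median was 0.07. In the same population, all 9 members with an unadjusted p-value under 0.05 between conspecific and heterospecific libraries had the lower conspecific level. Without trial 14 this count was 5, and the share of all genes in that fit is not given here. How all genes with such a p-value split by direction was not counted in either contrast. Both contrasts share the heterospecific libraries, including trial 14, which stood apart over the members as a whole.

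The members called by DESeq2 were ENSGACG00000006321 and ENSGACG00000004041. ENSGACG00000006321 was at 1.66, 0.98, 4.78, 4.02 and 1.13 CPM in the 5 heterospecific benthic libraries and at 0.20, 0.50, 0.47, 1.07, 0.39 and 1.02 CPM in the 6 social control ones. Only 1 heterospecific library was inside the social control range. The log2 fold change by DESeq2 was 2.06 ± 0.51 (SE) with an adjusted p-value of 0.0658. Its spread in limnetic females was as wide, from 0.207 to 5.71 CPM in Paxton limnetic females and from 1.41 to 4.89 CPM in those of Priest Lake.

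ENSGACG00000004041 was at 225.3, 335.2, 246.1, 174.7 and 275.7 CPM in the heterospecific benthic libraries and at 119.8, 119.8, 172.9, 153.1, 134.1 and 151.0 CPM in the social control ones. All 5 heterospecific libraries were above the 6 social control libraries, and 3 of them were also above the median of the Paxton limnetic females. The log2 fold change by DESeq2 was 0.84 ± 0.21 (SE) with an adjusted p-value of 0.056. Neither gene passed the threshold with edgeR, or with DESeq2 when trial 14 was left out, an alternative chosen after these calls were seen.

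ENSGACG00000009752 was called by edgeR between conspecific and heterospecific Paxton limnetic females when trial 30 was left out. It was at 9.23, 10.3, 10.1, 8.44, 6.71 and 14.6 CPM in conspecific and at 5.44, 8.66, 5.96, 6.46, 5.07 and 2.91 CPM in heterospecific libraries, where 8.66 was trial 30. Without that library the log2 fold change was 0.96 ± 0.25 (SE) with an adjusted p-value of 0.0936, and the groups did not overlap. In that fit 0.38% of all genes were called. DESeq2 called it in the same contrast when benthic trial 14 was left out (log2 fold change 0.80 ± 0.21, adjusted p = 0.0724). The share of all genes in that DESeq2 fit is not given here. With all 51 libraries, no member was called in this contrast by edgeR or DESeq2.

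Whether the difference between limnetic and benthic females varied with treatment was tested with the interaction, taking the mean of both limnetic populations. No member was called by edgeR, and 0% of all genes, in the conspecific against social control and in the conspecific against heterospecific contrast, and DESeq2 called none of the members. Unadjusted p-values under 0.05 were found in 4 and 10 members by edgeR, and in 3.80% and 4.02% of all genes. All 10 had a larger limnetic difference under conspecific than under heterospecific courtship, and there were 4 such members, and 3.98% of all genes, without trial 14. The direction of all genes with such a p-value was not counted. The conspecific against heterospecific interaction uses the same benthic heterospecific libraries, including trial 14, as the contrasts within benthic females. Its count is thus not independent of theirs. With treatments compared over all populations, 0 members and 0% of all genes were called by edgeR in each of the 3 contrasts, with 4, 5 and 9 members and 4.92%, 5.09% and 3.95% of all genes at an unadjusted p-value under 0.05, and DESeq2 called none of the members. The DESeq2 shares of all genes in the interaction and pooled contrasts are not given here, so nothing is read from its counts of 0.

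With trial number within groups, 16 of the 100 members were called by edgeR at an adjusted p-value under 0.1, 7 rising and 9 falling. The share of all genes called was 17.6%, so the members were near the background. The firmest was ENSGACG00000018093, which rose by 0.070 ± 0.015 (SE) on the log2 scale per 10 trials (edgeR, adjusted p = 0.00165). ENSGACG00000011734 rose by 0.062 ± 0.014 (adjusted p = 0.00232). Among falling members ENSGACG00000019274 had the smallest p, with -0.037 ± 0.010 per 10 trials (adjusted p = 0.00807).

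The other rising members were ENSGACG00000001490, ENSGACG00000001493, ENSGACG00000008302, ENSGACG00000011715 and ENSGACG00000008307, with log2 slopes of 0.052 to 0.101 per 10 trials. The other falling members were ENSGACG00000007921, ENSGACG00000009844, ENSGACG00000009989, ENSGACG00000007188, ENSGACG00000011181, ENSGACG00000017567, ENSGACG00000020361 and ENSGACG00000014031, with slopes of -0.035 to -0.160. Trial 14 had the lowest trial number of the benthic libraries, which ran from 14 to 91. Without it 12 members were called, 9 rising and 3 falling, and with all 53 libraries 10 were called, all rising. The shares of all genes called were 16.2% and 17.2%. Over all genes, rising and falling calls numbered 1938 and 1596 with the 51 libraries, 1779 and 1498 without trial 14 and 1930 and 1541 with all 53 libraries. The fit of all 53 libraries includes trials 9 and 83, which lay at positions of 0.0682 and 1.11 over the members, opposite to their labels. Nothing is therefore read from the direction of its 10 calls.

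Some members stood next to each other in the count table. In 4 pairs of members the rows were consecutive, and 6 further pairs were 2 to 4 rows apart. What the row order stands for is not stated, and whether such genes lie side by side in the genome was not checked. For these 10 pairs, the deviations of log2(CPM + 0.5) from the group means were correlated over the 51 libraries, with two-sided permutation tests adjusted over the 10 pairs (Benjamini-Hochberg). Neither the population nor the treatment difference enters these deviations, but a trend with trial number within groups does. ENSGACG00000001490 and ENSGACG00000001493, 1 of the pairs, both rose with trial number.

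ENSGACG00000010914 and ENSGACG00000010915 had nearly parallel values. Pearson's r was 0.905 (permutation p = 1e-05, adjusted p = 0.0001) and Spearman's rho 0.892 (permutation p = 1e-05, adjusted p = 0.0001), where 1e-05 is the smallest p these permutations can give. Without the 2 libraries farthest from the median r was 0.878. Both genes were highest in Priest limnetic trial 18, at 7.36 and 4.06 CPM, and lowest among limnetic libraries in trial 15, at 0.49 and 0 CPM. Reads shared between overlapping or nearly identical genes could not be checked, so the values of neighbouring members may not be independent.

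The next pairs had lower correlations. For ENSGACG00000001490 and ENSGACG00000001493 r was 0.721 (permutation p = 2e-05, adjusted p = 0.0001) and rho 0.696 (permutation p = 2e-05, adjusted p = 0.0001), and r was 0.634 without the 2 farthest libraries. For ENSGACG00000019056 and ENSGACG00000019061 r was 0.648 (permutation p = 5e-05, adjusted p = 0.000167) and rho 0.601 (permutation p = 6e-05, adjusted p = 0.0002), and r was 0.590 without the 2 farthest. For ENSGACG00000001493 and ENSGACG00000001495 r was 0.549 (permutation p = 0.00025, adjusted p = 0.000625) and rho 0.514 (permutation p = 0.00045, adjusted p = 0.00112), and r was 0.446 without the 2 farthest. The 4 consecutive pairs thus held the highest values of these 10 pairs. Of the 6 other pairs only ENSGACG00000018015 and ENSGACG00000018029 had an adjusted p under 0.1 for both measures, with r of 0.352 (permutation p = 0.0228, adjusted p = 0.0456) and rho of 0.319 (permutation p = 0.0429, adjusted p = 0.0857), and 0.359 without the 2 farthest. High values were not limited to close rows. ENSGACG00000001493 had a higher r, 0.801, with ENSGACG00000011734, 10969 rows apart, than with ENSGACG00000001490. ENSGACG00000011734 also rose with trial number. How other neighbouring rows correlate is not given here.

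**Figure D5:**
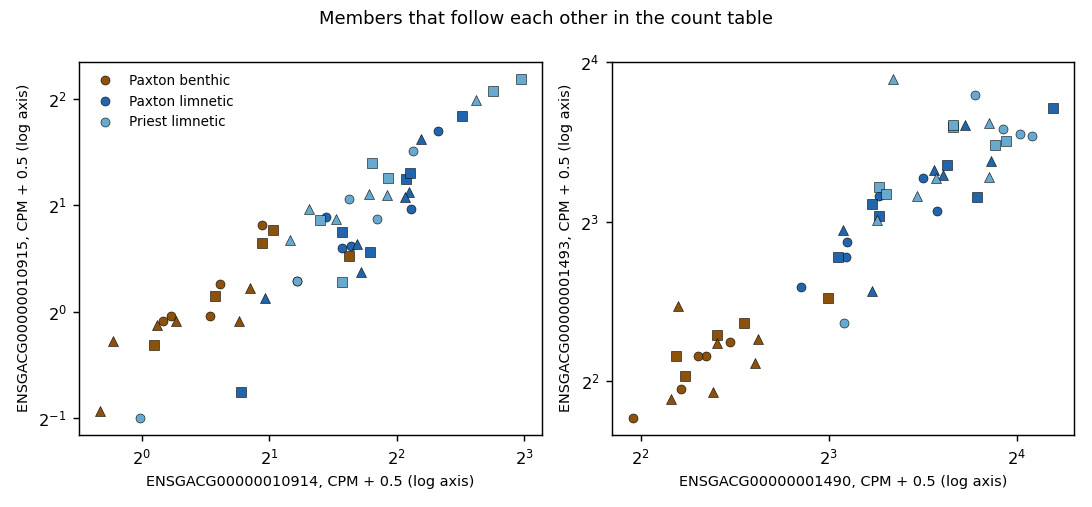
CPM + 0.5 (log axes) of members on consecutive rows of the count table, 1 point per library (51), coloured by population, with circles for the conspecific, squares for the heterospecific and triangles for the social control treatment. ENSGACG00000010914 and ENSGACG00000010915 (left) rise together within each population (r of 0.905 after group means were removed), and ENSGACG00000001490 and ENSGACG00000001493 (right) do so with more scatter (0.721).

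Most members did not vary together within groups. Over all 4950 pairs of members the median correlation of the deviations was 0.04, and 19 pairs reached 0.7. Both genes of a pair were measured in the same 51 libraries, so these values are given as a description. The highest was 0.907 between ENSGACG00000018505 and ENSGACG00000014031, which were both among the 6 most abundant members and were 14951 rows apart in the table. In both genes the highest benthic library was trial 31 and the highest libraries in the limnetic populations were trials 25 and 18. One set with correlations of at least 0.7 linked ENSGACG00000018014, ENSGACG00000020689, ENSGACG00000009904, ENSGACG00000020382, ENSGACG00000007379 and ENSGACG00000000258, at 0.73 to 0.77 between 7 pairs. Another linked ENSGACG00000002369 with ENSGACG00000008259, ENSGACG00000010674, ENSGACG00000009154 and ENSGACG00000010158. ENSGACG00000006303 joined this set through ENSGACG00000010674 alone, at 0.78.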

How the data were processed

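Counts of reads per gene were made by the authors and deposited without normalization. The submitters' processing notes name FastQC 0.11.1, Trimmomatic 0.33, BWA 0.7.7, SAMtools 1.2 and bedtools 2.23.0. The group model, the model of population plus treatment and the threshold of 0.1 follow the study, with edgeR 4.0.16 (TMM, quasi-likelihood) in place of DESeq2 1.42.0, an alternative here (R 4.3.3). Pooled treatment contrasts, the interaction with the mean of the limnetic populations and the slope on trial number were added here. Contrasts within populations were fitted with 1 mean per group, pooled contrasts with population and treatment, and the slope with group and trial number. Of 22456 identifiers, 0 matched the reference gene table used here. All 100 members passed the filter on low counts. Libraries were checked for duplicates, and none were found. The replicates are separate fish. Intervals and SEs cover the spread between fish.

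Named members were the 12 with the highest score, the 6 with the highest mean CPM, the 3 on either side of the cut, those called in a test, the 5 with the largest limnetic SD and those close in the table. Others were named after their values were seen. The members, lists and tests were chosen with earlier results of these data known. Gene lists of brain cell types and pathways could not be matched to the identifiers. Scripts were tested on simulated data. One title gives trial 89 where the same sample's description gives 88, and 88 was used.

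Alternatives were DESeq2, no filter on low counts, all 53 libraries, trial number as a covariate, leaving out each library, and, for membership, TMM scaling, pseudocounts of 0.1 and 2, other CPM minimums and a limnetic difference under 0.6. Leaving out trials 14 and 72 together, DESeq2 without trial 14, and the linear model with trial number for the median differences, were chosen after seeing the data.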

Additional observations from a re-analysis of the deposited data

Results flagged for a closer look

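The median position over the members was searched in each of the 9 groups, and the CPM of the 3 members called under an alternative in the groups of their contrasts, 15 sets of values in all, of which 3 held a library far from the rest. Chance gives about 1 in 20 such sets, and the 9 positions come from overlapping genes. In the Paxton benthic heterospecific group, trial 14 lay at a position of 0.41, while the other 4 libraries lay between -0.034 and 0.0875. In the Paxton limnetic conspecific group, trial 17 lay at 0.779, while the group's median was 1.03. In the Paxton limnetic social control group, trial 61 lay at 1.1, while the group's lowest was 1.02, a tight group in which the distance was small.

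The libraries left out of all comparisons were outside the range of the population on their label. Trial 83, labelled Paxton benthic conspecific, lay at 1.11, where the benthic libraries reached 0.41 at most. Trial 9, labelled Priest limnetic conspecific, lay at 0.0682, where the Priest limnetic libraries began at 0.732. What sets these libraries apart was not tested.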

How the results depend on the processing

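No paired analysis was possible because trial numbers are not shared between groups. Membership kept 73 to 100 of the 100 genes under TMM scaling, other pseudocounts, no CPM minimum, a limnetic difference under 0.6 and all 53 libraries, and 92 to 99 when 1 library was left out, but 57 with a mean CPM of at least 5. The higher minimum drops only members below it, so the 57 is fixed by their levels and is no check on the rest. The count of 5 separated members was 5 to 10 when 1 library was left out (10 without trial 14), 10 without trials 14 and 72, and 0 with all 53 libraries under their labels. Median differences stayed between 0.56 and 0.81 for Paxton and 0.56 and 0.83 for Priest limnetic females. Members called between treatments within a population were 2 by DESeq2, 1 by DESeq2 without trial 14 and 0 to 1 when 1 library was left out (1 without Paxton limnetic heterospecific trial 30), against 0. Members called with trial number were 10 with all 53 libraries, against 16, and 12 to 21 when 1 library was left out. Of all genes, 17.2% were called with all 53 libraries, against 17.6%, and 16.2% without trial 14. Shares for the other fits are not given here, so nothing is read from the range. The causes were not tested. Interaction and pooled counts were 0 under every alternative run. The shares of all genes in those fits are not given here, so nothing is read from these counts. At 5 or 6 libraries a group, small differences between treatments may be missed, and members near a CPM of 1 rest on few reads in benthic libraries.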
